A study of Mus musculus with 11 samples.

Results

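miR-504 is a microRNA (miRNA) made from a single hairpin inside an intron of mouse Fgf13 on the X chromosome. Its members were the rows of the deposited table named for its mature arms, mmu-miR-504-5p and mmu-miR-504-3p, which gave 2 rows of 2128. The miRNA was selected on its measured difference between virtual memory and true naive CD8+ T cells in these libraries, so that difference is described below with no test.

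Small RNA was sequenced from CD8+ T cells of mouse spleen, enriched with CD8a microbeads and sorted as CD4- CD8+ CD49dlo GFP+ cells. The CD44hi part of that gate is labelled stamped VM (virtual memory, a memory phenotype reached without foreign antigen) and the CD44lo part stamped TN (true naive). The groups were Dirty_VM (3 libraries), Dirty_TN (3), Clean_VM (3) and Clean_TN (2, replicates 2 and 3). All cells carried the GFP used for the sort, and the labels define neither its driver nor what dirty, clean or stamped mean, and give no strain, age or pooling. About 10000 sorted cells, over 95% pure by the protocol, were used per RNA sample. Nothing states that replicates were separate animals, so p-values measure the spread between these libraries only. Library totals ran from 2614396 to 16312004 estimated counts. miR-150-5p, a miRNA abundant in mature lymphocytes, averaged 86834 CPM (counts scaled to a common library total) in Dirty_VM, 95440 in Dirty_TN, 86675 in Clean_VM and 130833 in Clean_TN libraries. Such a lymphocyte miRNA does not tell CD8+ T cells or these subsets from other lymphocytes.

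As background, a miRNA hairpin is cut by Drosha and Dicer into a short duplex, and usually 1 strand, here called an arm, is kept by an Argonaute protein. Bases 2 to 8 of the kept arm, the seed, pair with target messenger RNAs and lower their translation or stability. Its host gene Fgf13 encodes a fibroblast growth factor homologous factor, a protein that is not secreted and binds voltage-gated sodium channels, and is known mainly from neurons and heart.

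The 5p arm carried nearly all miR-504 reads, so its sequence is shown with the seed in capitals, followed by the whole hairpin with the 5p arm in capitals. Both are RefSeq sequences of GRCm38.p6 (the assembly also named mm10), given 5′ to 3′ from the minus strand.
miR-504-5p: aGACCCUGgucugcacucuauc
mir-504 hairpin: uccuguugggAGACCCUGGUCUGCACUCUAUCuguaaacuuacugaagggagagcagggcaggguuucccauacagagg
The hairpin is 79 bases long and lies at chrX:59097658-59097736, with the 5p arm at chrX:59097705-59097726. RNAfold predicted a fold of -45.0 kcal/mol in which 19 of the 22 bases of the 5p arm, and all 7 seed bases, were paired.

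In GENCODE M21 the hairpin overlapped no exon of Fgf13 (chrX:59062145-59568071, minus strand). Of the 9 annotated Fgf13 transcripts 4 spanned it. In each of these it lay in the same 58294 bp intron, 28157 bp downstream of one exon and 30058 bp upstream of the next. It is intron 4 of the longest transcript and intron 3 of the other three. The annotated starts of these transcripts lay between 35478 and 470335 bp upstream of the hairpin. The host transcript itself was not measured in these small RNA libraries.

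**Figure D1:**
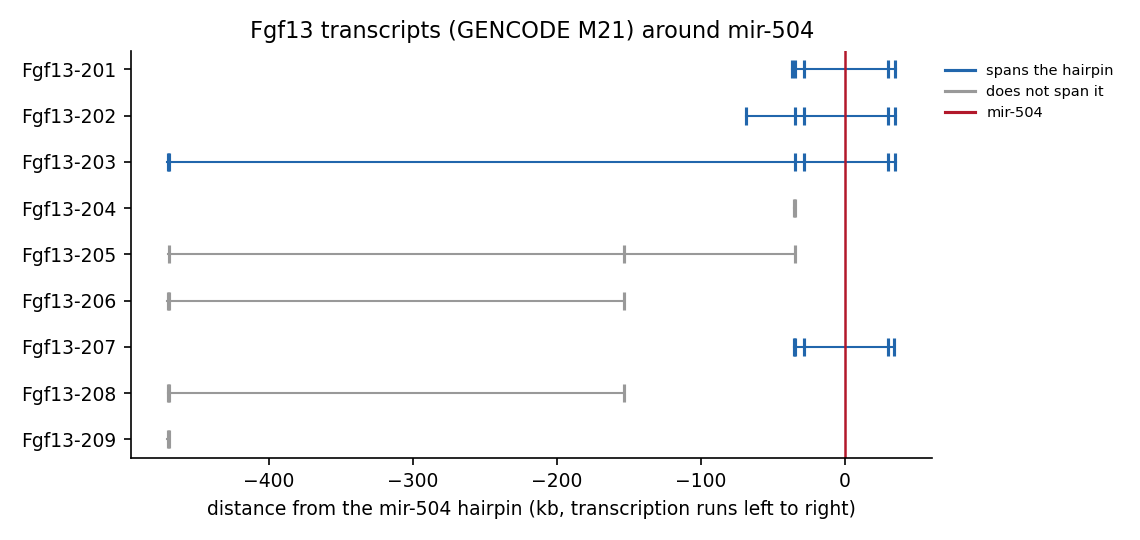
Fgf13 transcripts drawn by distance from the mir-504 hairpin in kb, with exons as ticks and the direction of transcription from left to right. The 4 transcripts that span the hairpin are blue and the others grey, and the hairpin (red line) lies between exons in all 4.

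miR-504-5p was about 3-fold higher in virtual memory than in true naive cells, in dirty and in clean mice. Levels are CPM on library totals scaled by edgeR's trimmed mean of M-values (TMM). In Dirty_VM libraries miR-504-5p stood at 173, 216 and 215 CPM for replicates 1, 2 and 3, from 581, 525 and 3582 counts, and in Dirty_TN libraries at 68.4, 83.6 and 49.9 CPM, from 532, 290 and 614 counts. The lowest dirty virtual memory library stood well above the highest dirty naive one. In Clean_VM libraries it stood at 191, 197 and 228 CPM for replicates 1, 2 and 3, from 712, 2016 and 2277 counts, and in Clean_TN libraries at 64.2 and 63.6 CPM for replicates 2 and 3, from 705 and 211 counts. The groups did not overlap in clean mice either.

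Group means were 201 ± 24.6 CPM (SD, n = 3) in Dirty_VM, 67.3 ± 16.9 CPM (n = 3) in Dirty_TN, 205 ± 20.1 CPM (n = 3) in Clean_VM and 63.9 ± 0.453 CPM (n = 2) in Clean_TN. Ordered by mean, the levels ran Clean_VM, Dirty_VM, Dirty_TN and Clean_TN. The neighbours within each subset differed by less than the SD of any group of 3 libraries, and the gap in the middle separated the subsets. The naive pair differed by more than the SD of Clean_TN, which rests on 2 libraries. Over both environments the lowest virtual memory library, at 173 CPM, was 2.07-fold above the highest naive library, at 83.6 CPM. The fitted log2 difference of VM minus TN was 1.59 in dirty mice (3-fold), 1.69 in clean mice (3.22-fold) and 1.64 averaged over both (3.11-fold). These values are those for which the miRNA was chosen. In the edgeR fit 12.1% of the 545 tested rows passed for VM against TN in dirty mice (6.24% higher and 5.87% lower), 17.4% in clean mice (9.72% higher and 7.71% lower) and 23.7% on average (11.4% higher and 12.3% lower). Every VM library lay above every TN library of the same environment, in dirty and in clean mice, for 42 tested rows (7.71%). Nothing is read from these shares here. A lower share of cells with the miRNA and less of it per cell cannot be told apart in such bulk samples.

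**Figure D2:**
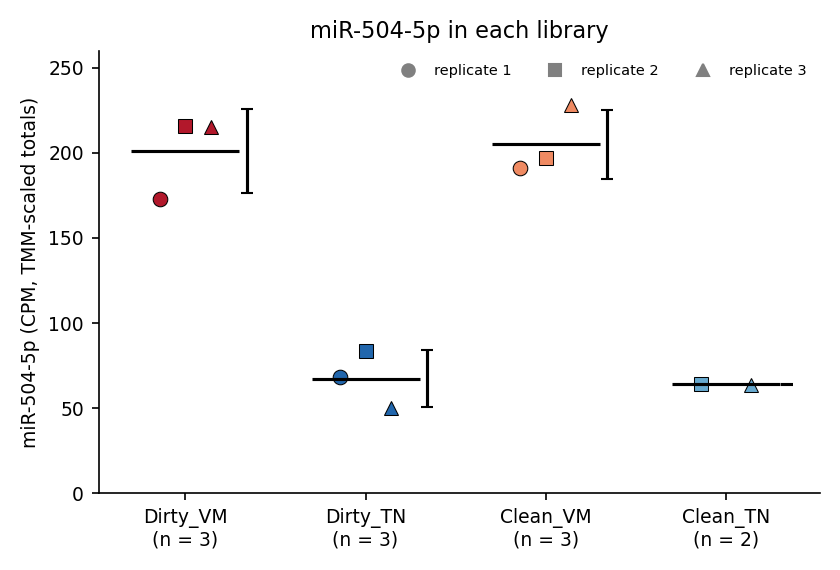
Level of miR-504-5p in each library (CPM on TMM-scaled totals), with a line at each group mean and a bar of 1 SD beside it. The 6 virtual memory libraries sit at 173 CPM or more and the 5 naive libraries at 83.6 CPM or less, in both environments.

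The rank of miR-504-5p among the 545 tested rows moved little within a subset. It ranked between 112 and 119 in the 6 virtual memory libraries, counting from the most abundant row, and between 145 and 160 in the 5 naive libraries. The ranks of the subsets did not overlap. The ranks do not depend on how the libraries were scaled.

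The spread between replicates of this miRNA was near that of rows of like level. The pooled SD within groups was 0.234 on the log2 scale, against a median of 0.441 over all tested rows and 0.279 over the 100 rows nearest to it in level. Of these 100 rows 35 had a smaller SD. Counting alone gives a relative error of 6.88% at its lowest count of 211 and of 1.67% at its highest of 3582. Coefficients of variation were 12.2% in Dirty_VM, 25.1% in Dirty_TN, 9.81% in Clean_VM and 0.71% in Clean_TN, the last from 2 libraries only.

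Library depth varied within groups, so the levels were also set side by side within the 6 deep libraries (over 6000000 counts) and the 5 shallow ones. Among deep libraries miR-504-5p averaged 215 CPM in Dirty_VM (1 library) and 59.1 CPM in Dirty_TN (2), and 212 CPM in Clean_VM (2) and 64.2 CPM in Clean_TN (1). Among shallow libraries it averaged 194 CPM in Dirty_VM (2) and 83.6 CPM in Dirty_TN (1), and 191 CPM in Clean_VM (1) and 63.6 CPM in Clean_TN (1). Since the subsets do not overlap, any such split places virtual memory cells higher, and only the size of the gap is described here. The smallest of these log2 differences was 1.21, in shallow dirty libraries, and the largest 1.88, in deep dirty libraries.

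The next comparison asked whether the environment moved miR-504-5p. The choice was made on the gap between the subsets, with earlier results of these data known. No difference between dirty and clean mice was detected in either subset. In virtual memory cells the log2 difference of dirty minus clean was -0.03 ± 0.21 (SE, edgeR quasi-likelihood, adjusted p = 0.96), with a 95% interval from 0.717-fold to 1.34-fold. In naive cells it was 0.07 ± 0.24 (adjusted p = 0.927), with an interval from 0.738-fold to 1.49-fold. Averaged over the subsets it was 0.02 ± 0.16 (adjusted p = 1), with an interval from 0.802-fold to 1.28-fold. A change of the size seen between the subsets lies outside each of these intervals, and changes smaller than their bounds cannot be told from 0 with these libraries. The signs of these differences turned under other scalings.

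No difference of differences was detected either. It compares the gaps in dirty and in clean mice, for which the miRNA was chosen, so a small value can follow from that choice. The VM minus TN gap of miR-504-5p differed by -0.10 ± 0.32 on the log2 scale, dirty minus clean mice (edgeR adjusted p = 0.951). Its 95% interval ran from 0.582-fold to 1.49-fold, and its sign turned with scaling to library totals. Among all 545 rows 0% passed for dirty against clean in virtual memory cells, in naive cells, averaged over both, and for the difference of differences. At an unadjusted p under 0.05 edgeR gave 81, 38, 28 and 93 rows in these comparisons, and DESeq2 called 22, 3, 1 and 41 rows after adjustment, while limma-voom called 1, 0, 1 and 0. Without Dirty_TN replicate 3 edgeR called 26, 28, 0 and 73 rows. In virtual memory cells it also called 5 rows without Dirty_TN replicate 1, 3 without Dirty_TN replicate 2 and 3 without Clean_VM replicate 1, and the last setting gave 1 row for the difference of differences. miR-504-5p passed with none of these tools and under none of these settings.

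In an exact two-sided permutation of the dirty and clean labels within each subset, the averaged difference of miR-504-5p gave p = 0.97 over 200 arrangements, where the smallest p possible is 0.005. Within the deep libraries the dirty minus clean difference was 0.02 in virtual memory and -0.14 in naive cells on the log2 scale. Within the shallow ones it was 0.02 in virtual memory and 0.40 in naive cells, the last from 1 library against 1. The replicate 2 library of Dirty_TN, at 83.6 CPM, was the highest of the naive libraries and is the dirty one in that pair.

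**Figure D3:**
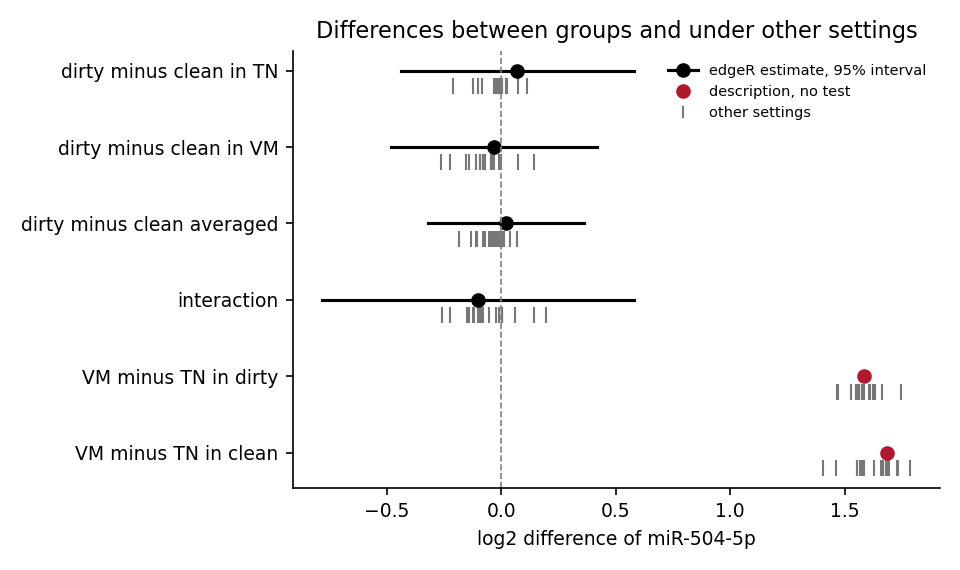
Log2 differences of miR-504-5p between groups, with the edgeR estimate as a point, its 95% interval as a line for the tested contrasts, and grey ticks for the same value under the other settings tried. The dirty minus clean values and the interaction (the difference of differences) lie around 0, and the VM minus TN values, given as a description with no interval, lie between 1.406 and 1.787 under all settings.

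miR-504-3p, the opposite arm of the same hairpin, was close to absent. It had 2, 1 and 10 counts in Dirty_VM replicates 1, 2 and 3, and 1, 0 and 2 counts in Dirty_TN. It had 1, 1 and 2 counts in Clean_VM replicates 1, 2 and 3, and 3 and 0 counts in Clean_TN replicates 2 and 3. Only the deepest library, Dirty_VM replicate 3, held more than 3 counts. Its row did not pass the filter on low counts and entered no test. A count of 0 allows up to 0.865 CPM in Dirty_TN replicate 2 and up to 0.904 CPM in Clean_TN replicate 3, taking 3 counts as the limit.

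Over all libraries miR-504-3p made up 23 of 12068 miR-504 counts, or 0.191% (exact 95% interval 0.121 to 0.286%, counting error only). The share was 0.175% (17 of 9710 counts, 0.102 to 0.28%) in virtual memory and 0.254% (6 of 2358 counts, 0.0934 to 0.553%) in naive libraries, and these intervals overlap. By group it was 0.277% (0.147 to 0.472%) in Dirty_VM, 0.208% (0.043 to 0.608%) in Dirty_TN, 0.0799% (0.0218 to 0.204%) in Clean_VM and 0.326% (0.0674 to 0.951%) in Clean_TN. The 3p counts behind these shares number 13, 3, 4 and 3, and 10 of the 13 in Dirty_VM came from replicate 3. The shares of Dirty_VM and Clean_VM each lie outside the other's counting interval, and no test of the difference over libraries was made.

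Such a skew was common among the hairpins of these cells. Of 197 hairpins with 1 row per arm and at least 1000 counts, mir-504 included, 54 had a lower share of the less abundant arm than mir-504. The median share was 1.36%. Among the 35 hairpins within 2-fold of its total count, itself included, 13 had a lower share, with a median of 0.711%. Some hairpins share a mature sequence with another hairpin, and their counts can then be entered on several rows. Such repeats are among the 197 and lie on both sides of mir-504. The mir-669a hairpins at 29.7% and the mir-467a hairpins at 43.5% lie above the median. let-7a-2, mir-103-1 and mir-26a-1 at 0% and mir-103-2 at 0.00902% lie below mir-504, so the 54 hairpins are not all independent.

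**Figure D4:**
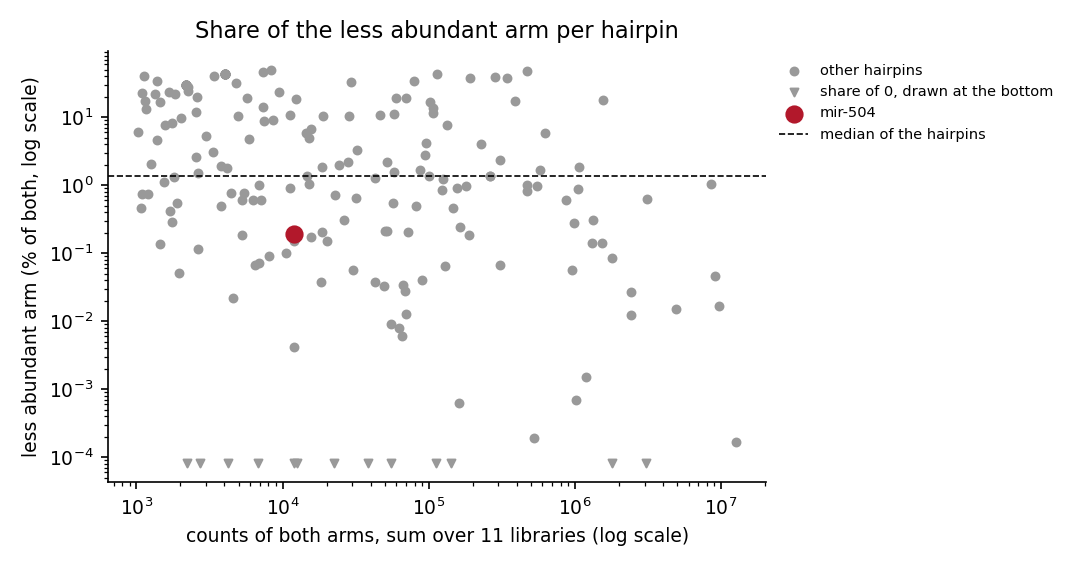
Share of the less abundant arm (percent of both arms, log scale) against the counts of both arms summed over the 11 libraries (log scale), 1 point per hairpin, with triangles for shares of 0. mir-504 (red) lies at 0.191%, below the dashed median of 1.36% and inside the cloud of hairpins of like total count.

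No other miRNA shared the seed of miR-504-5p among the 1679 mature mouse sequences at hand, which covered 1679 of the 1978 mature names in the table. The 6 letters ACCCUG, which stand at bases 3 to 8 of miR-504-5p, stand at bases 2 to 7 of miR-10a-5p and miR-10b-5p, that is, 1 base nearer the 5′ end. These are Hox cluster miRNAs, and their sequences are set beside miR-504-5p with the shared letters in capitals (RefSeq, GRCm38.p6, chr11:96317186-96317208 and chr2:74726074-74726096, both plus strand).
miR-504-5p: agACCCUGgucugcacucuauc
miR-10a-5p: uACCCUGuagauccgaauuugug
miR-10b-5p: uACCCUGuagaaccgaauuugug
The same letters stand at bases 3 to 8 of another 3 miRNAs, miR-7018-3p, miR-7023-3p and miR-7068-3p, of which miR-7023-3p totalled 15 counts over all libraries, miR-7068-3p 17 and miR-7018-3p none.

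miR-10a-5p stood at 77.7, 73.1 and 69.8 CPM in Dirty_VM and 47.0, 42.1 and 42.1 CPM in Dirty_TN libraries. In Clean_VM libraries it stood at 84.0, 108 and 98.7 CPM, and in Clean_TN libraries at 28.0 and 32.1 CPM. Like miR-504-5p it was higher in every virtual memory library than in every naive one. Its log2 difference averaged over both environments was 1.22 ± 0.14 (SE, edgeR adjusted p = 3.36e-05). Among all 545 rows 11.4% passed as higher in this comparison. In 7.71% every VM library lay above every TN library within each environment, so little is read from this row. The gap was less even than that of miR-504-5p, with means of 73.5 against 43.7 CPM in dirty mice and 97.0 against 30.0 CPM in clean mice. miR-10b-5p averaged 37.6 ± 15.9 CPM in Dirty_VM, 37.7 ± 13.2 in Dirty_TN, 54.2 ± 17 in Clean_VM and 29.2 ± 1.46 in Clean_TN (SD), and did not pass (0.45 ± 0.27, edgeR adjusted p = 0.27). Per group mean, miR-504-5p was above either of these miRNAs in all 4 groups on the CPM scale; no length scaling was applied, since these mature miRNAs are of near equal length.

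The miRNAs whose levels ran most like miR-504-5p were found by the root mean square difference between log2(CPM + 0.5) profiles, each centred on its own mean over the 11 libraries. Since the subsets dominate that profile, likeness means mostly a like gap between VM and TN, and the values are a description. The closest of the 544 other tested rows was miR-139-5p (hairpin at chr7:101475376-101475443), at a difference of 0.184, against a median of 0.949 over all rows. It averaged 10292 ± 1247 CPM in Dirty_VM and 2876 ± 21.5 in Dirty_TN, and 9446 ± 1164 in Clean_VM and 3035 ± 71.8 in Clean_TN (SD). It is far more abundant than miR-504-5p, with log2 differences of VM minus TN of 1.84 in dirty and 1.64 in clean mice.

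The next closest was miR-149-5p (hairpin at chr1:92850378-92850443), at a difference of 0.275. It averaged 279 ± 55.2 CPM in Dirty_VM and 122 ± 7.19 in Dirty_TN, and 277 ± 16.0 in Clean_VM and 123 ± 5.29 in Clean_TN. Its level is near that of miR-504-5p and its gap between the subsets smaller, with log2 differences of 1.2 and 1.17 in dirty and clean mice. The others were miR-486a-3p at 0.299, miR-195a-3p at 0.311 and miR-130b-5p at 0.355. miR-486a-3p and miR-195a-3p were rare, with group means of at most 5.97 and 11.4 CPM. The sixth row followed at 0.376, so the list of 5 ends at no clear gap.

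**Figure D5:**
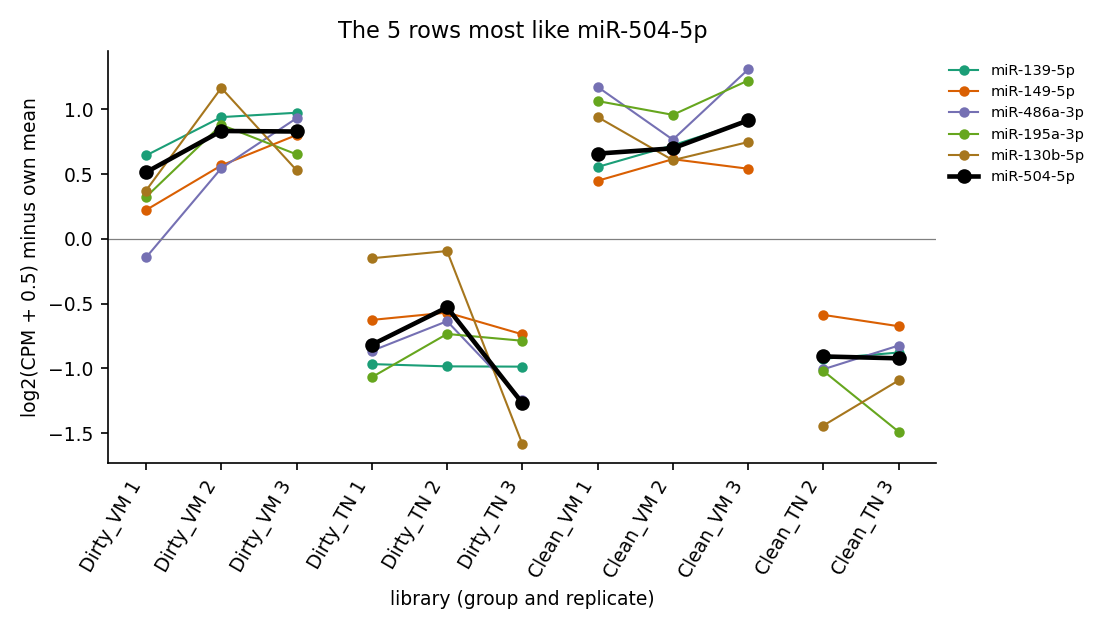
Profiles of miR-504-5p (black) and the 5 rows most like it over the 11 libraries, as log2(CPM + 0.5) minus the mean of each row, with lines joining libraries of 1 group. miR-139-5p follows miR-504-5p most closely, at a root mean square difference of 0.184, and Dirty_TN replicate 3 is the lowest library for 5 of the 6 rows drawn, all but miR-195a-3p.

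The hairpins nearest to mir-504 on the X chromosome that had counts lay far from it, and their rows were rare. Counting distance as negative toward lower coordinates, these were mir-5116 at -2510 kb, mir-322 at -6043 kb and mir-503 at -6044 kb. On the other side they were mir-505 at 1297 kb, mir-471 at 7695 kb and mir-741 at 7699 kb. Group means of their rows reached at most 11.5 CPM, for miR-322-3p in Dirty_TN. miR-322-3p fell in virtual memory cells, with a log2 difference of -1.34 ± 0.46 (edgeR adjusted p = 0.0482), at means of 3.53 CPM in Dirty_VM, 11.5 in Dirty_TN, 2.95 in Clean_VM and 6.02 in Clean_TN. Among all 545 rows 12.3% passed as lower in this comparison, so 1 such row says little. mir-322 forms a cluster with mir-503, and the other tested rows of these hairpins did not pass. Within that cluster the estimates were also below 0, at -1.47 ± 0.68 for miR-322-5p, -1.0 ± 0.43 for miR-503-5p and -0.53 ± 0.75 for miR-503-3p. miR-505-3p and miR-505-5p, the nearest in distance, had log2 differences of VM minus TN of 0.43 ± 0.63 and 0.27 ± 0.42.

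miRNAs of other cell types were read beside these values. In the neuronal and neuroendocrine list, which bears on the tissues where Fgf13 is best known, 0 of 3 tested members of 6 passed for VM against TN, beside 23.7% of all rows, with sums from 1431 to 2236 CPM in Dirty_VM, 1722 to 4216 in Dirty_TN, 1604 to 1980 in Clean_VM and 1368 to 1601 in Clean_TN. Most of each sum was miR-128-3p alone, which averaged 1778 CPM in Dirty_VM, 2798 in Dirty_TN, 1712 in Clean_VM and 1451 in Clean_TN. It did not pass for VM against TN (edgeR adjusted p = 0.491). The list's defining miR-124-3p was at 0 in both virtual memory groups and averaged at most 0.0407 CPM in naive groups. miR-9-5p averaged 0.561 CPM in Dirty_VM, 0.638 in Dirty_TN, 0.397 in Clean_VM and 0.589 in Clean_TN. In the heart and skeletal muscle list 0 of 4 tested members passed and miR-208a-3p had no count. Its summed level ranged from 12.4 to 26.6 CPM in Dirty_VM, 10.1 to 25.1 in Dirty_TN, 9.93 to 24.2 in Clean_VM and 15.8 to 21.8 in Clean_TN libraries.

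Some miRNAs of other lists were higher in virtual memory libraries, beside 11.4% of all 545 rows that passed as higher for VM against TN, and lists this short say little against that share. Of 4 tested erythroid members 2 rose, miR-486a-5p and miR-486b-5p, which come from near-identical hairpins and may be 1 signal. The summed erythroid list ranged from 122 to 200 CPM in Dirty_VM, 68.9 to 147 in Dirty_TN, 129 to 261 in Clean_VM and 59.9 to 76.7 in Clean_TN, while the red cell miR-451a averaged 20.2, 15.5, 16.9 and 15.1 CPM in these groups and did not pass (edgeR adjusted p = 0.638). Of the endothelial and platelet list 1 of 2 rose, miR-126a-3p (0.87 ± 0.24, edgeR adjusted p = 0.0208), with sums from 29.6 to 53 CPM in Dirty_VM, 15.3 to 29.7 in Dirty_TN, 21.7 to 47.7 in Clean_VM and 18.4 to 19.3 in Clean_TN. Of the stromal list 1 of 4 rose, miR-143-3p (0.80 ± 0.18, edgeR adjusted p = 0.00577), with sums from 75.6 to 109 CPM in Dirty_VM, 48.6 to 72.2 in Dirty_TN, 62.9 to 105 in Clean_VM and 40 to 49.5 in Clean_TN. Of the epithelial list 2 of 6 rose, miR-200a-3p (0.72 ± 0.13, edgeR adjusted p = 0.00166) and miR-429-3p (0.51 ± 0.17, edgeR adjusted p = 0.0482), with sums from 1757 to 2201 CPM in Dirty_VM, 1285 to 1780 in Dirty_TN, 1517 to 1862 in Clean_VM and 1235 to 1324 in Clean_TN. The myeloid list had 0 of 1, at sums of at most 3.61 CPM. Of the 5 lymphocyte members miR-155-5p rose (0.60 ± 0.15, edgeR adjusted p = 0.0118) and miR-181a-5p fell (-1.69 ± 0.15) in virtual memory libraries. For dirty against clean 0% of all rows passed, so no list member could. The part of these cells in the level of miR-504-5p was not tested.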

How the data were processed

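The authors deposited 1 table of estimated counts (expected counts) per mature miRNA and hairpin for 11 libraries, with 88.7% of values whole (within 1e-09 of a whole number). Per the submitters' processing notes the build is mm10; which aligner, counter and miRNA annotation they used is not given in the sources used here. Per the labels' protocols, NEBNext Small RNA libraries were made from 60 to 100 ng of RNA with inserts of about 18 to 35 bp.

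Rows identical in name and values were kept once (120 removed, 2008 left), and counts were rounded before fitting. One edgeR 4.0.16 quasi-likelihood model with TMM scaling and 1 mean per group was fitted to the 545 rows kept by filterByExpr, over all 11 libraries (R 4.3.3). Tests were two-sided, with Benjamini-Hochberg adjustment over all 545 rows and a threshold of 0.05. SE is the absolute log2 difference divided by the square root of F. CPM values use unrounded counts. The fit was also run on simulated counts with the same spread for all rows, unlike the real rows, so that run does not give its error rates here.

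The members and lists were chosen with earlier results of these data known. Named rows were both arms, the 5 most like rows, the 3 nearest hairpins with counts on each side, rows sharing the seed, and listed members that passed; some planned lists are not reported here. miR-10 and the shifted letters, miR-150-5p, and listed markers named without passing were added after sequences or values were seen. Alternatives used DESeq2 1.42.0, limma 3.58.1 (voom), other scalings, filters, blocks and left-out libraries. Hairpin positions are from RefSeq GRCm38.p6, the fold from RNAfold 2.7.2.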

Additional observations from a re-analysis of the deposited data

How the results depend on the processing

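The VM minus TN difference of miR-504-5p stayed above 0 under every setting tried. It ranged from 1.467 to 1.748 in dirty mice, from 1.406 to 1.787 in clean mice and from 1.478 to 1.717 on average on the log2 scale, and these extremes all came from leaving out 1 library. Leaving out Clean_VM replicate 3 gave the 1.406, the one value further from its estimate than the spread between replicates.

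The dirty minus clean differences did not pass under any setting, with adjusted p-values from 0.615 to 1, but their signs were not stable. In naive cells the value was -0.011 with DESeq2, -0.006 with DESeq2 size factors, -0.124 with library totals, -0.023 with the 10 CPM filter, -3e-04 with rows summed per miRNA and -0.01 with the compared groups only. It ranged from -0.212 to 0.027 when each library was left out. In virtual memory cells it was 0.074 with library totals, and from -0.261 to 0.143 without each library. Averaged over subsets it was -0.053 with DESeq2, -0.004 with limma-voom, -0.05 with size factors, -0.025 with library totals, -0.046 for rows with at least 1 count, -0.033 with the 10 CPM filter and -0.07 with rows summed, and from -0.182 to 0.071 without each library. The difference of differences was 0.198 with library totals and from -0.259 to 0.144 without each library. Relative to the median of all rows, the naive value was -0.087 with TMM, -0.083 with size factors and -0.099 with library totals, while that median itself stood at 0.158, 0.077 and -0.025.

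Replicate numbers were not treated as pairs in the main fit. Deviations of same-numbered libraries from their group means correlated between -0.56 and 0.39 over 545 rows. With 2 or 3 libraries per group such correlations cannot decide whether the numbers pair the libraries. With a replicate block the dirty minus clean values were 0.112 in naive cells, -0.035 in virtual memory cells and 0.039 averaged, and the difference of differences was -0.147. A block per environment gave -0.122 for the difference of differences. The comparison with only the groups compared could not be run for averaged values, which use all groups. Over all rows, where edgeR called 0 for dirty against clean, keeping rows with at least 1 count gave 16 in virtual memory cells, 4 in naive cells, 1 averaged and 30 for the difference of differences. The 10 CPM filter gave 2 in virtual memory cells and 16 for the difference of differences, library totals 2 and the compared groups only 18 in virtual memory cells. For VM against TN in clean mice 95 rows passed, against 56 with the replicate block, 34 and 33 without Clean_TN replicates 2 and 3 and 61 without Clean_VM replicate 3. In dirty mice 66 passed, against 42 without Dirty_VM replicate 3. The 3p arm was limited by depth, with at most 10 counts in a library.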
